A study of Drosophila melanogaster with 27 samples.

Results

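The chorion protein genes of Drosophila melanogaster encode the main structural proteins of the outer eggshell. The genes were taken as 9 named members of 2 gene clusters: Cp7Fa, Cp7Fb, Cp7Fc, Cp36 and Cp38 on the X chromosome, and Cp15, Cp16, Cp18 and Cp19 on chromosome arm 3L. A member was measured when the array annotation assigned a probe set to it alone, which held for 7 of the 9 members with 1 probe set each, among 11894 genes in all. Those were 3 genes of the X cluster (Cp7Fc, Cp36 and Cp38) and the 4 genes of the 3L cluster. Cp7Fa and Cp7Fb had no probe set of their own and were not analysed here.

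The study asked how gene dose changes gene expression, and RNA of whole adult females from their first day as adults was hybridised to Affymetrix Drosophila version 2 arrays. There were 27 arrays in 9 groups of 3 biological replicates, and each replicate pooled 10 females. Wild type flies were of the strain y1 w67c23. Flies of the 3 deficiency groups, Df(2L)J-H/+, then Df(2L)ED4651/+, then Df(3L)4470/+, kept 1 copy of the deleted segment, and each group came from a cross of a balanced deficiency stock to Oregon R. Haplo 4th flies had 1 copy of chromosome 4 and came from wild type crossed to a stock with a compound chromosome 4. Crosses to the same compound stock gave Df(2L)J-H/+ haplo 4th flies, with the J-H deficiency and 1 copy of chromosome 4, as well as Dp(2;2)Cam3/+ triplo 4th flies, with a duplication and 3 copies of chromosome 4. A y1 w67c23; PofD119 stock gave the pof-mutant flies, and this stock crossed to flies with a Pof mutation and the compound chromosome 4 gave pof-mutant triplo 4th. Cross, parental strain and genotype therefore cannot be told apart in any comparison. The labels call the third deficiency Df(3L)4470, whereas the series text calls it Df(2L)ED4470. The supplement of the study lists it as Df(3L)ED4470, with its affected genes on arm 3L.

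Chorion proteins are made by the follicle cells, the somatic epithelium around each developing egg chamber, during the last stages of oogenesis. Before these stages both clusters are amplified in the follicle cells by repeated firing of local replication origins, which lets a small number of genes supply a large amount of messenger RNA in a short time. The vitelline membrane, the inner eggshell layer, is laid down earlier, so its genes mark somewhat younger follicles. Within the chorion genes, Cp36 and Cp38 are known as early genes and Cp15 as a late one. In a female that has just emerged the first egg chambers are still maturing.

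Levels are deposited RMA values on the log2 scale (robust multi-array analysis, in which 1 unit is a doubling of signal). Array means lay between 6.32 and 6.39. In 50 genes of chromosome 4 with a wild type mean above 6, the median log2 ratio to wild type was -0.65 for haplo 4th, -0.69 for Df(2L)J-H/+ haplo 4th, 0.47 for Dp(2;2)Cam3/+ triplo 4th, -0.38 for pof-mutant and 0.16 for pof-mutant triplo 4th. Pof itself lay between 8.95 and 11.01 in the pof-mutant arrays and between 7.44 and 7.92 in wild type, so its probe set did not mark the mutant by a lower level, and where that lies relative to the lesion is not given in the sources used here. The arrays labelled pof-mutant replicate 2 and pof-mutant triplo 4th replicate 2 stood apart from the rest. In these 2 arrays the median level of 11 muscle genes was 10.34 and 11.47, against 12.79 to 13.62 elsewhere, and that of 11 fat body genes was 8.25 and 9.99, against 10.64 to 12.31. No gene of an 18-gene list for male accessory gland and testis exceeded 7 on any array.

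Chorion gene levels ran from 4.07 to 13.66, and arrays of the same group lay near both ends. Of 189 values (7 genes on 27 arrays), 43 were above 7, a limit chosen after the levels had been seen. The nearest values on either side of it were 6.42 and 7.12. All 43 lay on 8 arrays: wild type replicates 1 and 3, replicate 1 of Df(2L)J-H/+ haplo 4th, replicate 3 of Dp(2;2)Cam3/+ triplo 4th, pof-mutant replicates 1 and 3, and pof-mutant triplo 4th replicates 2 and 3. On 4 of these arrays all 7 genes were above 7, and on the other 19 arrays none was. No group had a gene above 7 on all of its 3 arrays. In these bulk samples fewer late follicles and less chorion RNA per follicle cannot be told apart.

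**Figure D1:**
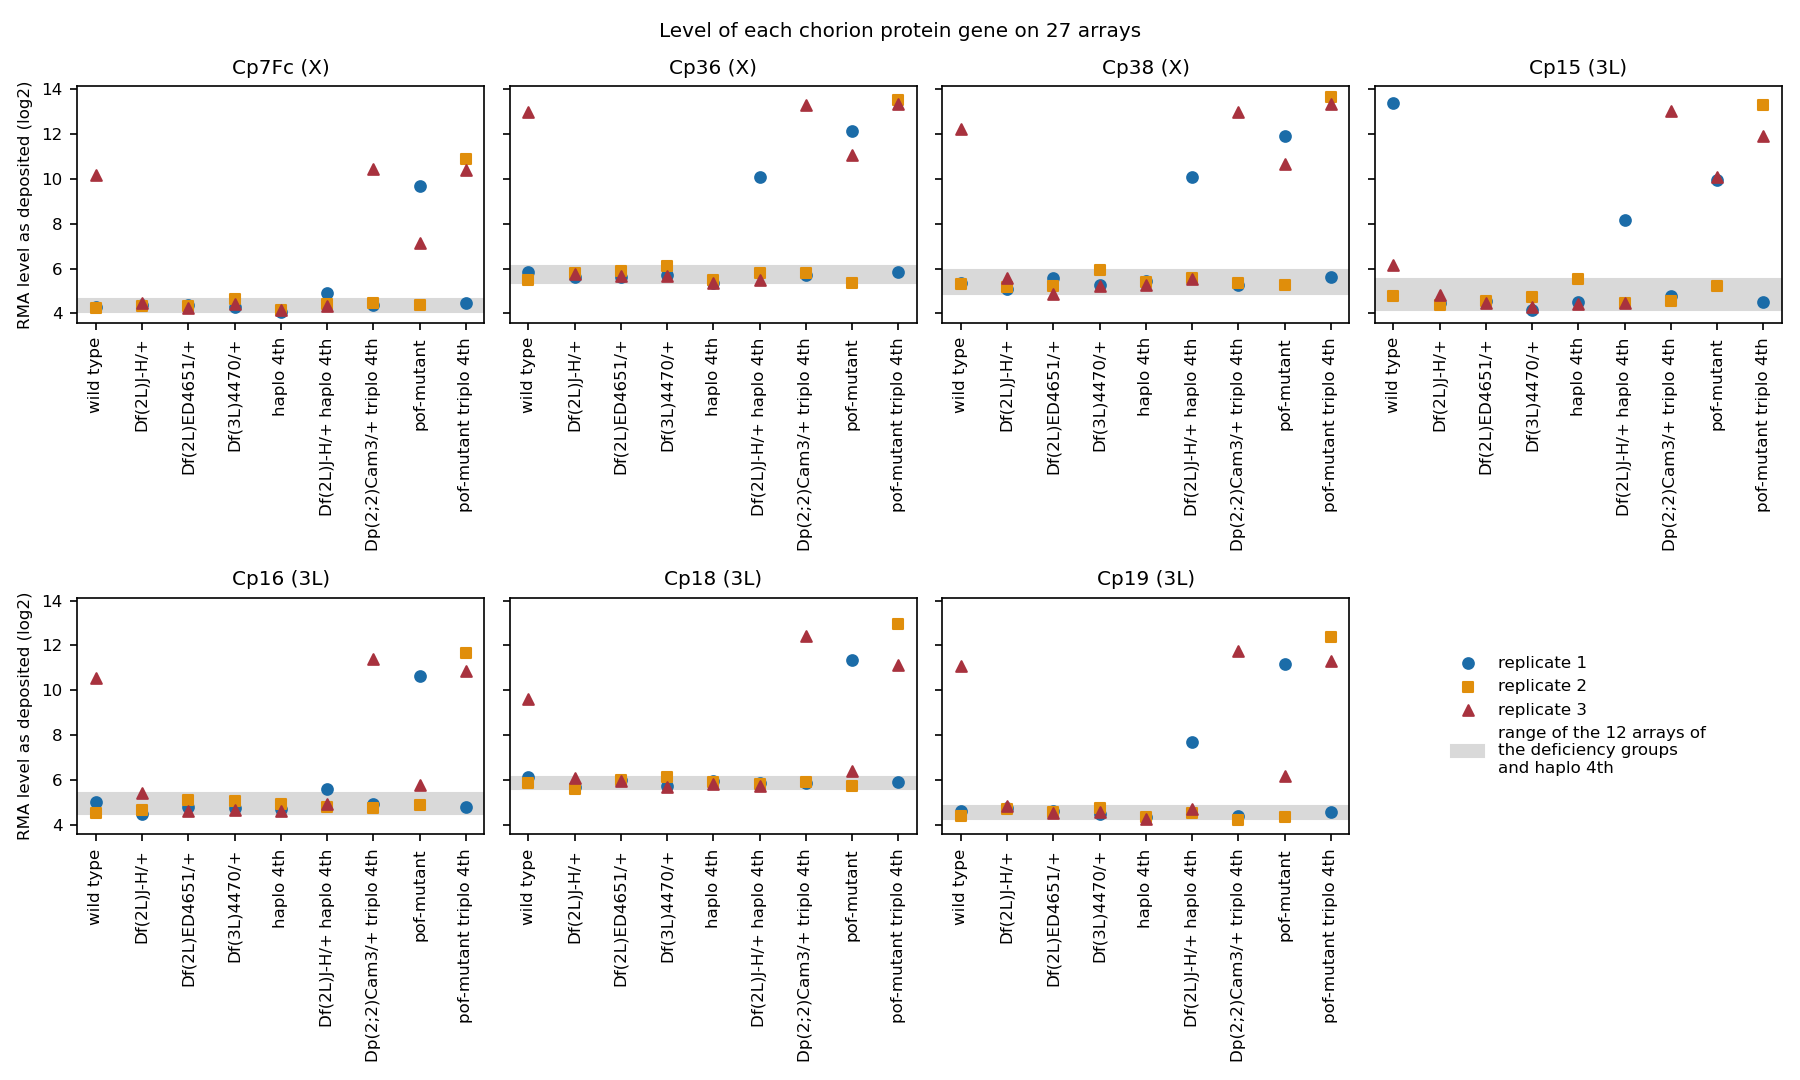
RMA level (log2, as deposited) of the 7 measured chorion protein genes on each of 27 arrays, by group; each point is 1 array, coloured by replicate number, and the grey band spans the 12 arrays of the 3 deficiency groups and haplo 4th. High values lie on 1 or 2 arrays of wild type, of Dp(2;2)Cam3/+ triplo 4th, of both pof-mutant groups and of Df(2L)J-H/+ haplo 4th, and the remaining arrays of those groups lie in or near the band.

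No member had a high value in haplo 4th or in the 3 groups that carried a deficiency alone. On these 12 arrays Cp7Fc lay between 4.07 and 4.64, Cp36 between 5.36 and 6.11 and Cp38 between 4.86 and 5.95. In the 3L cluster Cp15 had the widest range there, between 4.14 and 5.53, Cp16 between 4.47 and 5.44, Cp18 between 5.60 and 6.14 and Cp19 between 4.27 and 4.82. The mean of these 12 arrays is used below as the low reference of each gene, a choice made after the levels had been seen. Each probe set has its own low level, so genes are set side by side only by their rise over this reference.

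In the X cluster, Cp36 and Cp38 encode major early chorion proteins. Cp36 was at 5.85, 5.50 and 12.97 in wild type replicates 1, 2 and 3. Its level was 5.71, 5.78 and 13.29 in Dp(2;2)Cam3/+ triplo 4th, 12.12, 5.33 and 11.05 in pof-mutant, and 5.83, 13.53 and 13.32 in pof-mutant triplo 4th. Each of these groups thus held both low and high arrays, and their ranges overlapped. Cp38 followed the same arrays, with 5.37, 5.30 and 12.20 in wild type and 11.90, 5.25 and 10.68 in pof-mutant. Cp7Fc, a gene of the same cluster, was at 4.28, 4.26 and 10.17 in wild type and at 9.68, 4.36 and 7.12 in pof-mutant. On pof-mutant replicate 3 it was therefore far below replicate 1, while Cp36 on the same 2 arrays differed by much less.

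In the 3L cluster, Cp19 was at 4.60, 4.40 and 11.09 in wild type, at 4.39, 4.22 and 11.76 in Dp(2;2)Cam3/+ triplo 4th, and at 11.19, 4.34 and 6.18 in pof-mutant. Cp16 stood 0.18, -0.28 and 5.74 from its reference in wild type, and its levels were 10.65, 4.87 and 5.80 in pof-mutant. Cp18 was at 6.12, 5.86 and 9.62 in wild type and at 11.35, 5.73 and 6.42 in pof-mutant. All 3 genes were high on wild type replicate 3 and pof-mutant replicate 1 and stayed below 7 on pof-mutant replicate 3.

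Cp15, which encodes a late chorion protein, did not follow its neighbours in wild type. Its level was 13.39, 4.76 and 6.18 in replicates 1, 2 and 3. Replicate 1 was the highest of all 27 arrays for Cp15, and there the other 6 genes lay between 4.28 and 6.12. Replicate 3 had the reverse order, with Cp15 at 6.18 and the other 6 genes between 9.62 and 12.97. In the other groups with high arrays Cp15 rose on the same arrays as Cp36: 13.04 on Dp(2;2)Cam3/+ triplo 4th replicate 3, 13.30 and 11.91 on pof-mutant triplo 4th replicates 2 and 3, and 9.96 and 10.07 on pof-mutant replicates 1 and 3.

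The 8 arrays with high values showed different subsets of the genes. Both clusters rose on Dp(2;2)Cam3/+ triplo 4th replicate 3, pof-mutant triplo 4th replicates 2 and 3 and pof-mutant replicate 1. On these arrays the difference in mean rise (X minus 3L) was -0.06, -0.04, 0.89 and 0.30. The X cluster was ahead by more on 3 other arrays. Its mean rise exceeded that of the 3L cluster by 2.27 on wild type replicate 3, by 2.35 on pof-mutant replicate 3 and by 1.38 on Df(2L)J-H/+ haplo 4th replicate 1. On wild type replicate 1 the 3L cluster was ahead (difference -2.27); without Cp15 the 3L rise there was 0.15, beside 0.05 for the X cluster.

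On Df(2L)J-H/+ haplo 4th replicate 1, Cp38 rose over the reference by 4.75, Cp36 by 4.42, Cp15 by 3.57 and Cp19 by 3.12, while Cp16 was at 0.80, Cp7Fc at 0.56 and Cp18 at -0.03. On pof-mutant replicate 3, Cp15, Cp36 and Cp38 rose by 5.50, 5.38 and 5.34, and Cp7Fc, Cp19, Cp16 and Cp18 by 2.79, 1.62, 0.98 and 0.54. On both arrays Cp36, Cp38 and Cp15 rose most and Cp18 least. On wild type replicate 3 the order was Cp36 (7.30), Cp38 (6.86), Cp19 (6.52), Cp7Fc (5.84), Cp16 (5.74), Cp18 (3.74) and Cp15 (1.60). On wild type replicate 1 Cp15 stood 8.82 above its reference and the other 6 genes between -0.05 and 0.24. These orders rest on single arrays, and no test was made of them.

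**Figure D2:**
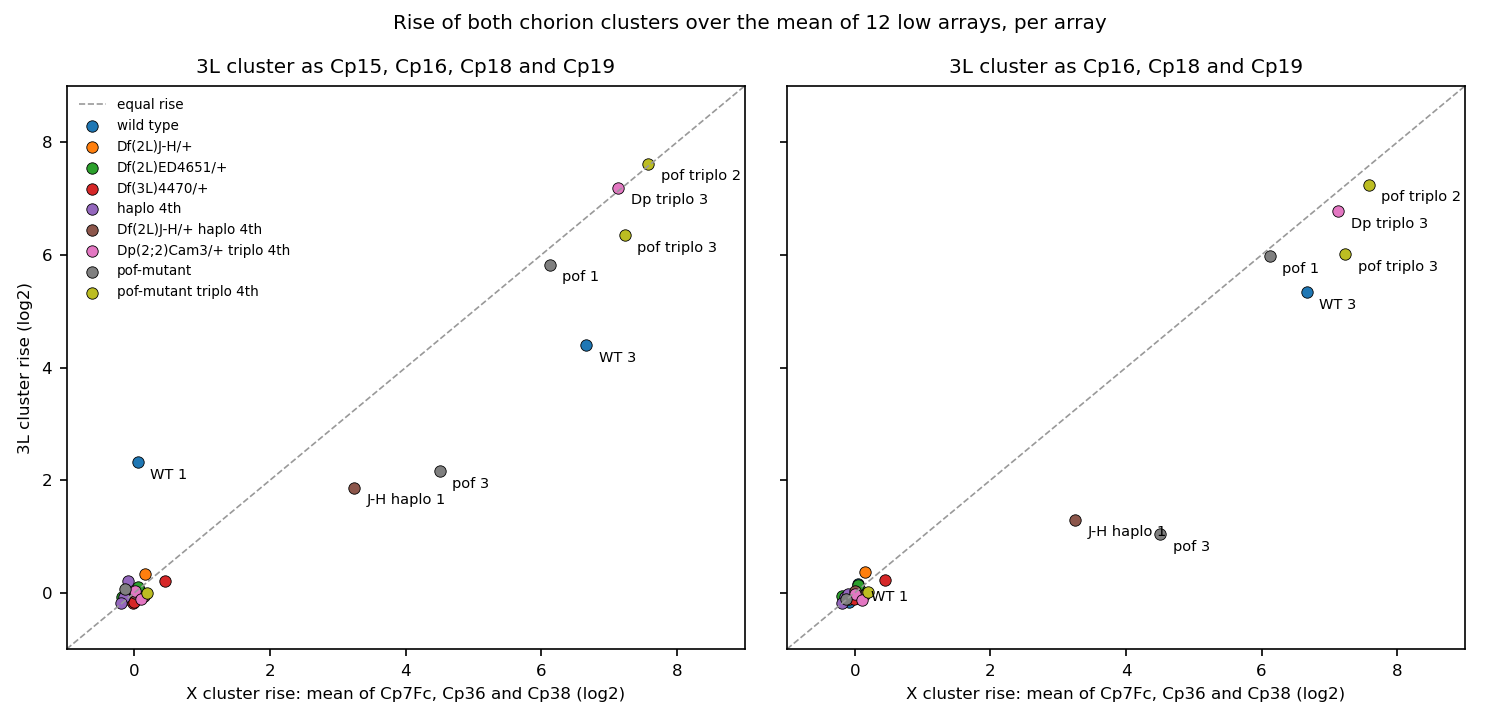
Mean rise over the low reference (log2) of the X cluster on the horizontal axis against that of the 3L cluster on the vertical axis, with 1 point per array coloured by group and the dashed line marking equal rise; the right panel leaves Cp15 out of the 3L mean. Without Cp15 the 3L rise of wild type replicate 1 drops from 2.32 to 0.15, beside an X rise of 0.05, and wild type replicate 3, pof-mutant replicate 3 and Df(2L)J-H/+ haplo 4th replicate 1 lie below the line in both panels.

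As group means, the rise of the X cluster minus that of the 3L cluster was -0.01 ± 2.27 (SD, n = 3) in wild type, where replicates 1 and 3 had opposite signs, so the mean near 0 describes neither array. It was 0.81 ± 1.35 in pof-mutant, 0.53 ± 0.75 for Df(2L)J-H/+ haplo 4th, 0.35 ± 0.48 for pof-mutant triplo 4th and 0.04 ± 0.15 for Dp(2;2)Cam3/+ triplo 4th, each less than its SD. The deficiency groups and haplo 4th, which form the reference, lay between -0.13 and 0.19. No test was made of these differences.

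The study left out genes with low wild type levels, and how it combined the wild type arrays for this is not given in the sources used here. With a limit of 6 on the mean of the 3 wild type arrays all 7 chorion genes passed, with wild type means from 6.24 (Cp7Fc) to 8.11 (Cp15), and each passed through 1 array. Without wild type replicate 3 the means of Cp36, Cp38, Cp7Fc, Cp16, Cp18 and Cp19 were 5.67, 5.34, 4.27, 4.77, 5.99 and 4.50. Without replicate 1 the mean of Cp15 was 5.47.

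No chorion gene differed between groups in any comparison by limma with Benjamini-Hochberg adjustment over all 11894 genes, on values centred per array. Ratios here are log2 differences of group means, and a gene was called at an adjusted p below 0.05. In the 3 deficiency groups against wild type the median ratio of the 7 genes was -1.70 for Df(2L)J-H/+, -1.88 for Df(2L)ED4651/+ and -1.83 for Df(3L)4470/+, and all 7 ratios were negative in each. None of the 7 was called, whereas 29.3%, 35.2% and 31% of all genes were. None had an unadjusted p below 0.05, whereas 44.8%, 48.6% and 44.3% of all genes had. The largest of these ratios was that of Cp15 in Df(3L)4470/+, at -3.47 with an SE of 2.25, and limma's adjusted p was 0.235. The centring shifted the median of all genes to 0.22, 0.25 and 0.23 in these groups, so the ratios are larger in size relative to the typical gene.

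Against wild type, the median ratio was -2.21 for haplo 4th, -1.25 for Df(2L)J-H/+ haplo 4th, 0.27 for Dp(2;2)Cam3/+ triplo 4th, 0.62 in pof-mutant and 2.75 in pof-mutant triplo 4th. The number called was 0 of 7 in each, beside 3.44%, 10.6%, 2.61%, 2.58% and 1.09% of all genes called by limma. With 7 genes, a count of 0 cannot be told from shares this small. The number with an unadjusted p below 0.05 was also 0 of 7 in each, beside 13.9%, 28.3%, 13.3%, 25.9% and 6.88% of all genes. The 8 comparisons to wild type share the same 3 wild type arrays. In pof-mutant triplo 4th, the ratios ran from 1.81 for Cp15 to 3.26 for Cp38, and limma's adjusted p from 0.941 to 0.986. SEs were between 1.62 and 2.25 in every comparison, so that ratios of the size observed lay within 2 SE of 0.

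Comparisons between aneuploid groups gave the same count. Df(2L)J-H/+ haplo 4th had a median ratio of 0.97 to haplo 4th and of 0.79 to Df(2L)J-H/+, and pof-mutant triplo 4th one of 1.61 to pof-mutant. Limma called 0 of 7 genes in each, beside 0.471%, 3.36% and 0% of all genes. At an unadjusted p below 0.05 there were 0 of 7 in each, beside 11.4%, 14.5% and 5.14% of all genes. In the last comparison 0 of 11894 genes were called and 611 had an unadjusted p below 0.05. Whether the J-H deficiency acted differently with 1 and with 2 copies of chromosome 4 was tested as an interaction, and no chorion gene passed (limma adjusted p from 0.577 to 0.821, lowest unadjusted p = 0.194). The difference between the triplo 4th effect in the pof-mutant and that of Dp(2;2)Cam3/+ triplo 4th in wild type was not called for any of the 7 genes either (limma adjusted p = 1).

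Single arrays set the size and often the sign of these ratios. Without wild type replicate 3 the median ratio to wild type became 0.27, 0.29 and 0.35 in the 3 deficiency groups, -0.10 with haplo 4th and 0.475 with Df(2L)J-H/+ haplo 4th. Without Dp(2;2)Cam3/+ triplo 4th replicate 3 the median of that group turned from 0.27 to -2.21. Without pof-mutant replicate 1, with high chorion genes, the median turned from 0.62 to -0.49, and without replicate 2, the array with low muscle and fat body genes, it was 1.97. Without pof-mutant triplo 4th replicate 2 the median of that group was 1.27 in place of 2.75. The number of chorion genes called was 0 in each of these fits.

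**Figure D3:**
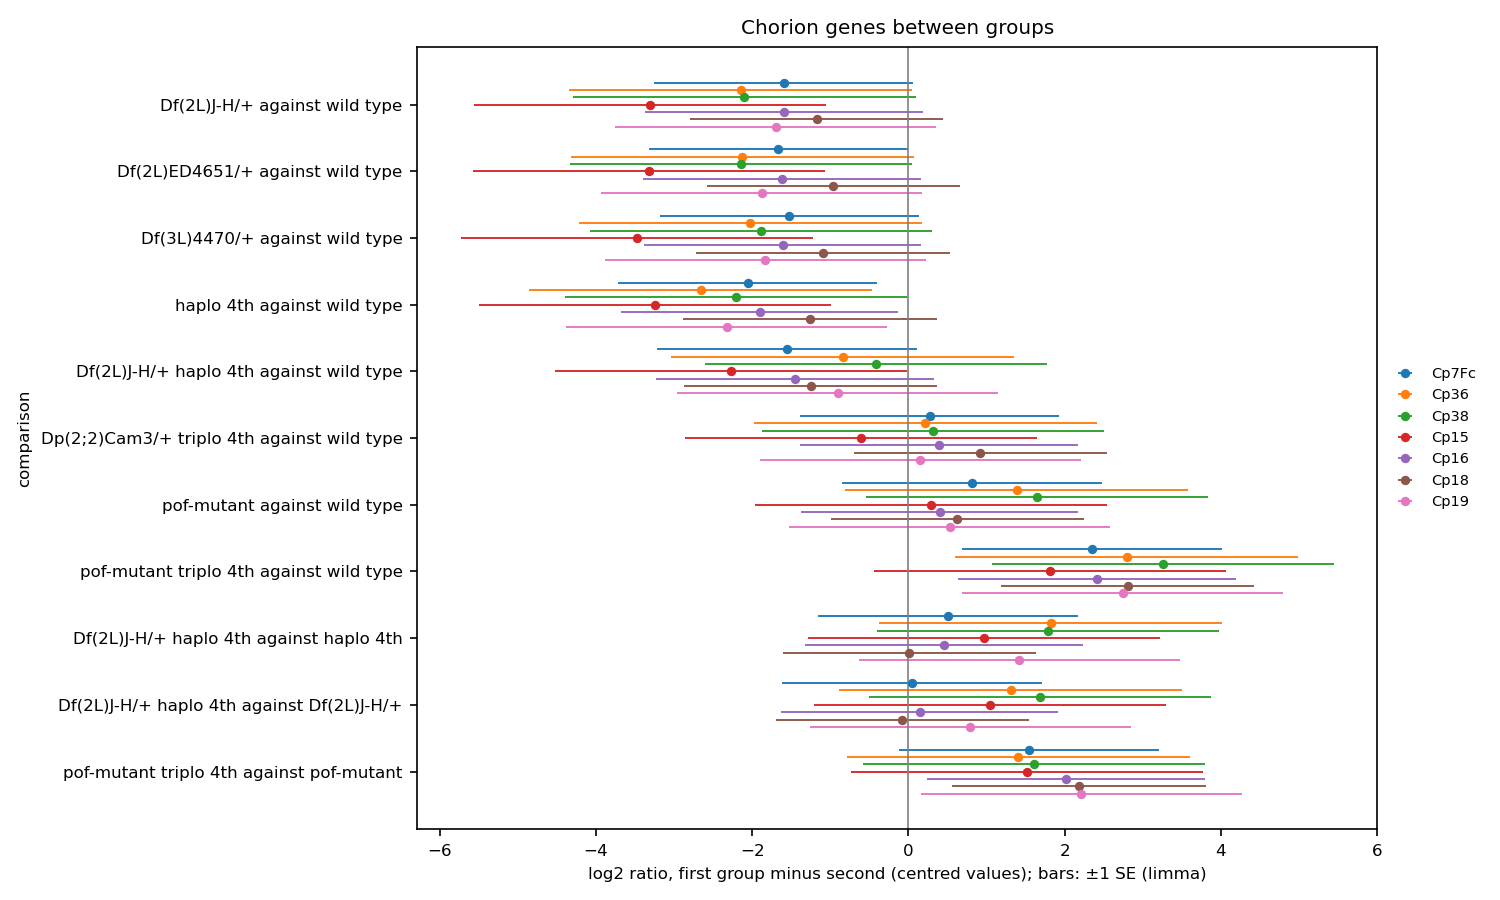
Log2 ratio (first group minus second, centred values) of the 7 chorion genes in 11 comparisons; points are differences of group means and bars are 1 SE from limma. The bars are long beside the ratios, with SEs between 1.62 and 2.25, and no ratio was called.

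The chorion genes were among the most variable of all genes between replicates of the same genotype. By SD within groups, Cp15 (2.95), Cp36 (2.87), Cp38 (2.87), Cp19 (2.69), Cp16 (2.33), Cp7Fc (2.18) and Cp18 (2.12) ranked 1, 2, 3, 5, 8, 10 and 12 of 11894 genes, whose median SD was 0.24. The other 5 genes of the first 12 were Vm26Aa, Vm34Ca and Vm32E, which encode vitelline membrane proteins, dec (defective chorion), which encodes eggshell proteins, and fit. The 9 group means took up 32.4% to 38.6% of the variance of the chorion genes, against a median of 61.4% over all genes. These shares are not adjusted for the number of means fitted to 27 arrays. Such means take up part of the variance even where groups do not differ, so the chorion shares do not show differences between groups.

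This spread did not extend to the neighbours of the clusters. Among the 10 measured genes on either side of each cluster, in the gene order of assembly Release 6 plus ISO1 MT, the SD within groups ranged from 0.17 to 1.22 with a median of 0.37 around the X cluster and from 0.14 to 0.94 with a median of 0.32 around the 3L cluster. The highest were otu, a gene needed in the female germline that lies next to Cp38, and Cdc6, which encodes a replication factor. Even these were below the lowest chorion gene, Cp18 at 2.12. The 20 genes around the 3L cluster had log2 ratios from -2.71 (CG13311) to 0.91 (Zasp66) in Df(3L)4470/+ against wild type, with a median of 0.25 beside 0.23 over all genes.

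The 3 vitelline membrane genes Vm26Aa, Vm34Ca and Vm32E were above 7 on 21, 27 and 9 arrays, against 5 to 7 arrays for each chorion gene. The limit of 7 was chosen on chorion levels, and each probe set has its own low level. Vm34Ca had a lowest level of 7.11, so its count of 27 includes arrays at its low level. The counts therefore do not compare how often these genes stood high. Within the list, Vm26Ac and Cad74A, a cadherin gene, were above 7 on 7 arrays each and Mur11Da on none. Vm26Aa was at 13.01, 13.41 and 13.77 in wild type, where it was high on all 3 arrays, including replicate 2 with no chorion gene above 7. In Dp(2;2)Cam3/+ triplo 4th it was at 6.32, 13.33 and 13.62. Replicate 2 of that group thus had Vm26Aa, Vm34Ca and Vm32E near the level of replicate 3 (Vm34Ca at 13.74 and 14.05, Vm32E at 10.65 and 11.18). Cp36 was at 5.78 on the first and 13.29 on the second. Cad74A and Mur11Da went with Cp36 there, at 6.57 and 3.81 on replicate 2 and at 7.89 and 6.48 on replicate 3. In wild type these 2 genes were at 6.24 and 3.82 on replicate 2 and at 7.54 and 4.26 on replicate 3. Df(3L)4470/+ replicate 1 and haplo 4th replicate 2 had Vm26Aa at 12.49 and 11.64 with no chorion gene above 6.14. Among Df(2L)J-H/+ arrays Vm26Aa was at 5.96, 6.41 and 7.01, below each wild type array.

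On every array with a chorion gene above 7, Vm26Aa was at 10.31 or more. The reverse was not so, as wild type replicate 2 shows. The dec gene followed the vitelline membrane genes, at 10.16, 11.21 and 11.88 in wild type and 11.35 and 11.89 on replicates 2 and 3 of Dp(2;2)Cam3/+ triplo 4th.

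**Figure D4:**
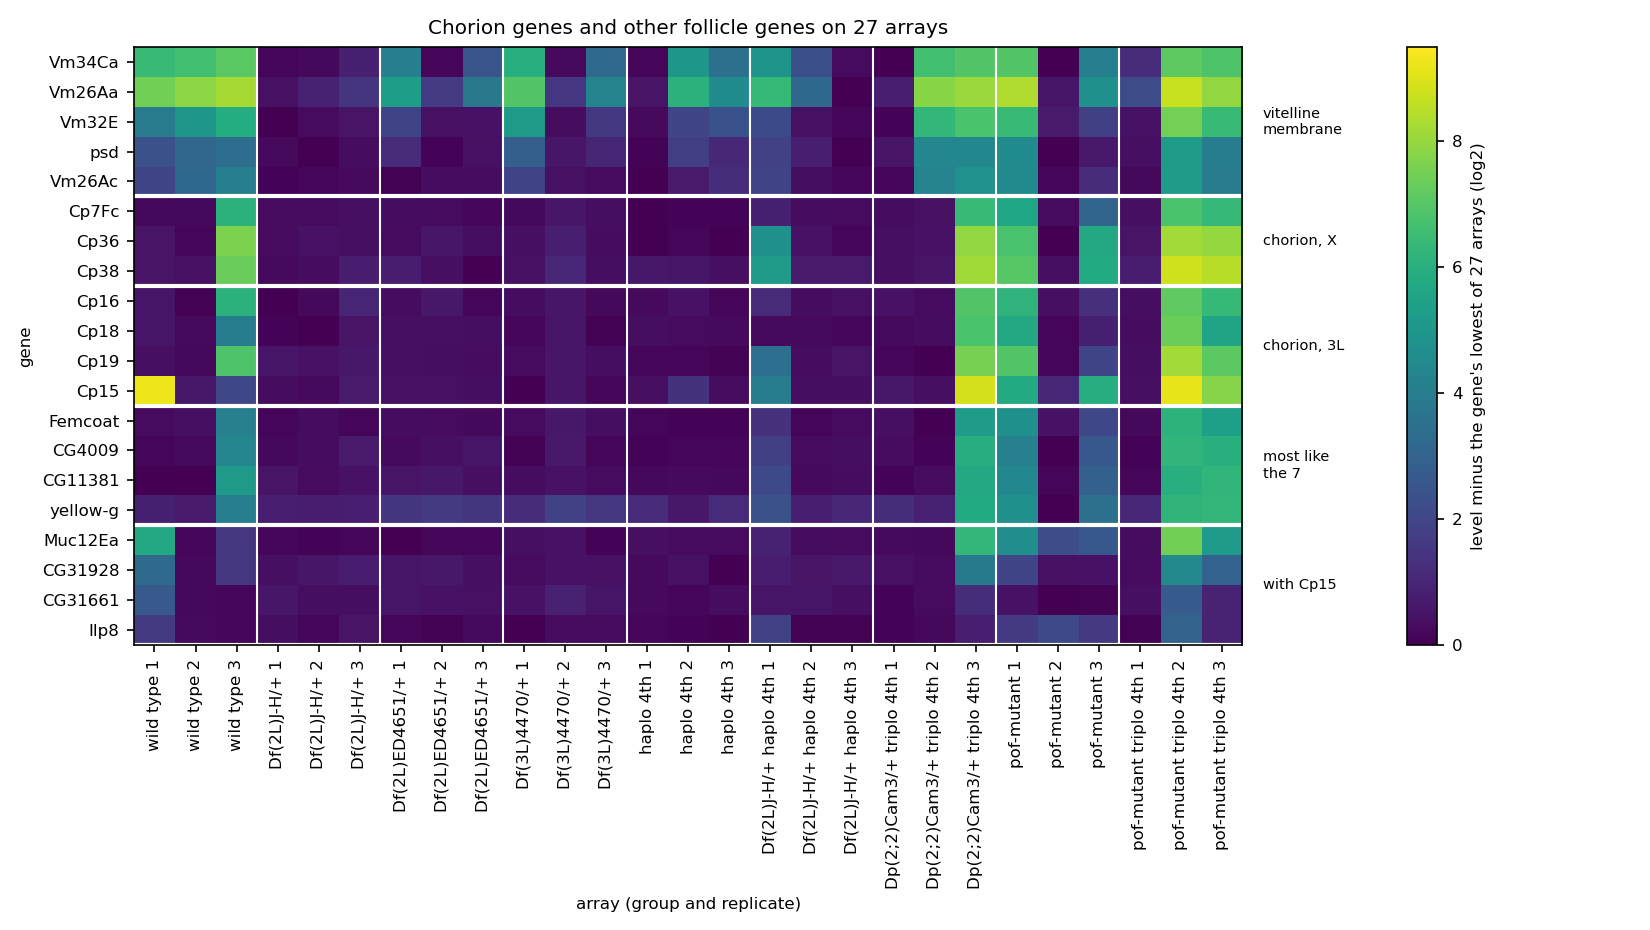
Level above the lowest of 27 arrays (log2, colour), with arrays as columns by group and replicate. Rows are 5 vitelline membrane genes, the 7 chorion genes, 4 of the genes most like them and 4 others. The last 4 were chosen after their values were seen, as higher with Cp15 on wild type replicate 1 than on the other wild type arrays. Of these, CG31661 was at 4.70 and 4.29 on pof-mutant replicates 1 and 3, where Cp15 was at 9.96 and 10.07. Ilp8 was at 7.03 on pof-mutant replicate 2 (Cp15 at 5.20) and at 5.71 on Dp(2;2)Cam3/+ triplo 4th replicate 3 (Cp15 at 13.04). The 5 vitelline membrane genes shown are high on arrays where chorion genes are low, such as wild type replicate 2 and Dp(2;2)Cam3/+ triplo 4th replicate 2. Cad74A and Mur11Da of the same list, not shown, are lower on both arrays than on replicate 3 of the same group. Cp15 is high with Muc12Ea on wild type replicate 1.

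The 10 genes whose levels were most like the mean of the 7 chorion genes were Femcoat, CG4009, CG11381, CG13083, CG13114, CG13084, CG14834, yellow-g2, yellow-g and Mur2B, with Pearson r from 0.958 to 0.988 over 27 arrays. Arrays of a group share a genotype and arrays fall into high and low ones, so these values are descriptions only. Over deviations from group means r was 0.959 to 0.987 for the same genes. Femcoat is an eggshell gene expressed in females, and yellow-g and yellow-g2 belong to the yellow family and are known from eggshell hardening. Femcoat was at 4.06, 4.15 and 7.92 in wild type, at 4.16, 3.77 and 8.98 in Dp(2;2)Cam3/+ triplo 4th, and at 8.54, 4.24 and 5.84 in pof-mutant. Of the arrays with high Cp36, it stayed below 7 on pof-mutant replicate 3 (5.84) and Df(2L)J-H/+ haplo 4th replicate 1 (5.13). On wild type replicate 1, where Cp15 alone was high, it was at its low level. CG4009 had 4.18, 4.29 and 8.46 in wild type.

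Wild type replicate 1 was examined for other genes that rose with Cp15. Cp15 exceeded the next wild type array by 7.22, more than any other gene on that array. Muc12Ea, a mucin-family gene, followed at 4.26 (9.41 against 5.15), and then CG31661 at 2.44, CG15721 at 2.39, CG32642 at 1.97, CG31928 at 1.79 and Ilp8, which encodes a relaxin-like peptide, at 1.38. There, 9 genes exceeded the next wild type array by more than 1, and 2 by more than 3. On replicate 3 the corresponding numbers were 37 and 19, led by Cp36, Cp38, Cp19, Cp7Fc and Cp16. Wild type replicate 2 had 31 genes above 1 and 0 above 3.

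Muc12Ea was also the gene whose pattern was most like that of Cp15 over the 27 arrays (r = 0.954), followed by CG31928 (r = 0.892). Both were chosen after the values of Cp15 had been seen. Muc12Ea was at 9.94 on Dp(2;2)Cam3/+ triplo 4th replicate 3, at 11.12 and 8.80 on pof-mutant triplo 4th replicates 2 and 3, and at 8.31 on pof-mutant replicate 1. On wild type replicate 3, where 6 chorion genes were high and Cp15 was not, it was at 5.15. On 2 arrays with high Cp15 it was lower, at 4.54 on Df(2L)J-H/+ haplo 4th replicate 1 (Cp15 at 8.14) and at 6.22 on pof-mutant replicate 3 (Cp15 at 10.07).

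Other genes of the egg were compared between groups as lists. Of 10 vitelline membrane and inner eggshell genes, 4, 3 and 1 fell by limma in the 3 deficiency groups against wild type, in the order above, and none rose, where 5.83%, 7.2% and 4.96% of all genes were called lower and 23.5%, 28% and 26% higher. On uncentred values 3, 3 and 1 fell, where the share of all genes called lower was not counted. The 4 of the J-H group were Vm26Aa (log2 ratio -6.70, SE 2.16, adjusted p = 0.0276), Vm34Ca (-6.05), dec (-5.14) and clos (-1.52), a gene needed for vitelline membrane integrity. The list's median ratio was -2.61, -2.38 and -1.68 in the 3 groups. In the other 8 comparisons limma called 0 genes of this list, with 0 to 5 at an unadjusted p below 0.05, beside 5.14% to 28.3% of all genes.

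Another list held 14 genes of late eggshell enzymes and coat proteins, among them yellow-g, Femcoat and others high with the chorion genes. Some members did not follow these. Pxd was at 10.31, 9.70 and 8.17 in Dp(2;2)Cam3/+ triplo 4th, where chorion genes were high on replicate 3 alone. CG31661 and CG31928 were at 6.89 and 7.32 on wild type replicate 1 and at 4.41 and 5.52 on replicate 3. Limma called 0 of the 14 genes in each of the 11 comparisons. In pof-mutant triplo 4th against wild type 3 had an unadjusted p below 0.05, beside 6.88% of all genes. Against pof-mutant 1 had, beside 5.14%. In every other comparison 0 had, also in the 3 deficiency groups, where 44.8%, 48.6% and 44.3% of all genes did. Of 19 genes that regulate or amplify the chorion clusters, 4, 6 and 1 fell in these groups, and none rose, so that the last count, 1 of 19, is near the share of 4.96% over all genes. On uncentred values these counts were 4, 8 and 3, and the share of all genes called lower on such values was not counted. Named ones were chif, which encodes the activating partner of a replication kinase (log2 ratio -1.04 for Df(2L)J-H/+ and -1.20 for Df(2L)ED4651/+), Orc1, a subunit of the origin recognition complex (-2.24 in Df(2L)ED4651/+), and usp, the partner of the ecdysone receptor (-0.91 for Df(2L)J-H/+ and -0.90 for Df(3L)4470/+). In pof-mutant against wild type limma called 0 of the 19, and the list's median ratio was 0.73. There 10 of the 19 had an unadjusted p below 0.05, beside 25.9% of all genes. In Df(2L)J-H/+ haplo 4th the homeobox gene mirr was called lower, by 0.87 against wild type and by 1.18 against Df(2L)J-H/+. It was the only 1 of the 19 called in each of these, where 356 and 230 of 11894 genes were called lower. A count of 1 of 19 is near such shares.

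Of 20 female germline genes, 9, 13 and 3 fell and 1 rose in each of the 3 deficiency groups, in the order above; in Df(3L)4470/+ the gene that rose was stau (0.82). Of all genes, 5.83%, 7.2% and 4.96% were called lower and 23.5%, 28% and 26% higher. The genes that fell included bcd (-3.25 for Df(2L)J-H/+, -3.63 for Df(2L)ED4651/+), which encodes the anterior determinant of the egg, otu (-3.17 and -3.33) and exu (-2.81 and -2.73). Of 4 yolk genes 3, 1 and 1 fell, among them yl, the yolk protein receptor, at -1.85, -2.40 and -1.74. In Df(2L)J-H/+ haplo 4th, whose replicate 1 had high chorion genes, aub (-1.03) and tud (-0.66) of the germline list fell and stau (0.81) rose against wild type. In that comparison 356 of 11894 genes were called lower and 904 higher. The part of the germline and yolk levels in the chorion levels was not tested.

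Lists for other tissues were counted in the same way. Of 11 muscle genes 1, 1 and 0 were called lower in the 3 deficiency groups. Of 11 fat body and 7 photoreceptor genes limma called 0 in each of the 11 comparisons. Of either list 0 to 2 had an unadjusted p below 0.05, beside 5.14% to 48.6% of all genes. Of 12 gut genes 2, 1 and 2 fell in the 3 deficiency groups, with Jon74E, a digestive protease, at -2.41, -1.42 and -2.51. In the J-H group with 1 copy of chromosome 4, 4 were called higher than in the J-H group with 2. In that comparison 170 of 11894 genes were called higher. The male list had 10, 11 and 10 calls upward in the 3 deficiency groups on centred values and 1, 0 and 0 on uncentred ones, all at levels below 7. Over all genes 23.5%, 28% and 26% were called higher in the 3 deficiency groups on centred values, and 5.83%, 7.2% and 4.96% lower. The lower shares are those to set beside the muscle and gut counts of these 3 groups. Shares over all genes on uncentred values were not counted.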

How the data were processed

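Total RNA of whole females was measured on 27 one-colour arrays. The authors deposited log2 values made by RMA (background correction, normalization between arrays, summary per probe set); whether all arrays were normalized together, and the software version, are not given in the sources used here. The table held 18952 probe sets. Of these, 13647 had 1 gene symbol, 402 several and 4903 none, and 13544 were named through RefSeq (Release 6 plus ISO1 MT, which also gave gene order). Of several probe sets of a gene, the one with the highest mean was kept. Levels are as deposited. For ratios each array was shifted by a constant that set the mean of 7378 genes, those with a wild type mean above 6, to the wild type value.

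Group means of all 11894 genes were fitted with limma 3.58.1 (R 4.3.3) over all 27 arrays, with no filter on level, and p-values were adjusted over all genes within each comparison. The script was tested on simulated data. The members, gene lists and comparisons were chosen with earlier results of these data known. Named genes were all members, up to 4 called genes per list with the largest ratios, and the 10 genes most like the members. Alternatives were values without centring, centring on the median, filters on level, means of probe sets, unshared probe sets, only the groups compared, array weights, a replicate block and leaving out each array. The number of arrays limits the precision, and saturation of probes was not assessed. List names were updated through synonyms after the values had been seen. Scan batches were not analysed here.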

Additional observations from a re-analysis of the deposited data

How the results depend on the processing

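The count of 0 called chorion genes did not change in any of the 11 comparisons without centring, with centring on the median, with either filter on level, with means of probe sets, with unshared probe sets, with only the groups compared, or without any single array (range 0 to 0). With array weights limma called 1, 1 and 6 genes in the J-H, ED4651 and 4470 deficiency groups, 1 for haplo 4th, 1 for Df(2L)J-H/+ haplo 4th, 7 for Dp(2;2)Cam3/+ triplo 4th, 1 in pof-mutant and 6 in pof-mutant triplo 4th, all against wild type. The weight estimation stopped before it converged, with weights from 0.0204 to 1029, so that single arrays stood for a group. The replicate block gave 0 called genes in each comparison. Deviations from group means correlated between -0.76 and 0.80 for arrays with the same replicate number and between -0.89 and 0.82 for others, so the numbers do not pair the arrays. The median ratio of the 7 genes took the opposite sign in 11 of 165 values under alternatives, over 7 of the 11 comparisons, and the difference between the clusters in 16 of 165. Among the genes with the largest ratio of each comparison, those that turned sign were Cp15 for Df(2L)J-H/+ haplo 4th against wild type, at 0.38 without wild type replicate 1 (range without 1 array -3.94 to 0.38), and of Cp18 in Dp(2;2)Cam3/+ triplo 4th against wild type, at -1.28 with array weights and -1.22 without that group's replicate 3 (range without 1 array -1.22 to 2.12). The cause was not tested beyond the levels of these arrays.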
